A study of Rattus norvegicus with 16 samples.

Results

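The sarcoglycan genes Sgcb, Sgca, Sgcd and Sgce and the sarcospan gene Sspn were followed on every array of the series, each through all the probes that the array's annotation assigns to it. These 5 genes, of 15168 named on the array, were represented by 6 of its 30367 probes. They were selected on the level of 1 of the 2 Sgcb probes, A_42_P646922, over the 16 arrays: it took 2 separate levels among the animals, so these levels are described here and not tested. All 6 probes passed the filter on dim probes, lay well above background on all 16 arrays and had no saturated spot.

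Sarcoglycans are single-pass membrane proteins that assemble into a complex beside dystrophin and dystroglycan, and the whole assembly links the actin cytoskeleton of a cell to the laminin of the matrix around it. In skeletal and heart muscle the complex holds alpha, beta and delta sarcoglycan, with sarcospan at its side, and loss of any of these sarcoglycans causes a limb-girdle muscular dystrophy. Beta and delta sarcoglycan form the core on which the others assemble, epsilon sarcoglycan takes the place of alpha in many tissues outside striated muscle, and vascular smooth muscle carries a complex of its own. In adipose tissue a sarcoglycan complex that contains sarcospan has been described in fat cells.

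The samples were epididymal white adipose tissue, the visceral fat pad along the epididymis, of male rats, taken at an age of 30 days from animals with free access to food. All of their dams ate a high-fat diet through pregnancy and lactation and took low-fat condensed milk by mouth every day, either plain (HF, 8 animals) or carrying 25 mg per kg body weight of grape seed procyanidin extract, GSPE (HFT, 8 animals). After weaning at day 21 the pups of both groups stayed on that diet, and whether the pups themselves took GSPE after weaning is not stated. The labels used here give neither the strain nor the litter of an animal, so p-values treat any littermates as independent. The comparison asks what GSPE given to the mother changes in the fat of offspring raised on a high-fat diet.

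Total RNA of every animal was measured on a separate 1-colour Agilent array, and the number of arrays limits the precision. A level is the log2 processed signal minus the 75th percentile of that array, so a level of 0 is a probe as bright as the 75th percentile, which lay between 753 and 1366 signal units. The adipocyte genes marked the tissue as labelled: Adipoq (adiponectin) ranged from 6.31 to 7.23 and Fabp4 (the fatty acid binding protein of fat cells) from 6.23 to 7.38 over the 16 arrays. Several arrays stood apart for genes of other tissues. By the median of the genes measured, HF 8, HFT 23 and HFT 28 were high for epididymal epithelium genes, and HF 35, HFT 22 and HFT 24 for urothelium genes. Of 14 epididymal genes listed, 5 were measured. Lcn5 was highest on HFT 28 and Lcn10 on HFT 23, but Lcn12 on HF 10, Adam7 on HF 35 and Ces5a on HF 9. Of 10 urothelium genes listed, 6 were measured, and Krt13 was highest on HF 13. HF 9, HF 35 and HFT 24 had the highest medians for smooth and skeletal muscle genes. Every one of the 4 slides held both groups, so differences can also be read within slides, but HF arrays always took the first 2 positions on a slide and position and group cannot be told apart.

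The start of Sgcb, on chromosome 14, and that of Sgca, on chromosome 10, are printed because the 2 genes encode partners in 1 complex yet begin in sequence of different composition. Each line gives the 250 bases before the RefSeq start in build GRCr8, read 5′ to 3′ on the gene's own strand, with every CG dinucleotide in capitals. The Sgcb window is chr14:34917413-34917662 on the plus strand and the Sgca window is chr10:80416076-80416325 on the minus strand.
Sgcb: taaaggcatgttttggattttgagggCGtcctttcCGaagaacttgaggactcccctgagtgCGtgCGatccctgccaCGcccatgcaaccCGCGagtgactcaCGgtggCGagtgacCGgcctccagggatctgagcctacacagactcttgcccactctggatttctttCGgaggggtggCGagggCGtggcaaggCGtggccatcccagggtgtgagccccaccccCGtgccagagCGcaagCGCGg
Sgca: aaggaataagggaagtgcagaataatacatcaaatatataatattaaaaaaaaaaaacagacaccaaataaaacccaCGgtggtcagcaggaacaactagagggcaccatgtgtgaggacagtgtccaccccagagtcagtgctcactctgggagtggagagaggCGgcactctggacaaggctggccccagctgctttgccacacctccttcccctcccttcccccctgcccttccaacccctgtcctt
The Sgcb window held 18 CG dinucleotides and 62.8% G or C, and 79.9% of the 33469 RefSeq windows of this length held fewer CG dinucleotides. The Sgca window held 2 CG dinucleotides and 50.8% G or C, and 18.1% of windows held fewer CG dinucleotides. Sgce resembled Sgcb in this respect with 20, whereas Sgcd had 5 and Sspn 6, near the median window with 5. Searched on both strands, the E-box letters CANNTG occurred 2 times before Sgca, 2 times before Sspn and 1 time before Sgcd, and in 65.5% of all windows. The GC box letters GGGCGG, which overlap a CG dinucleotide, occurred 2 times before Sgce and in 30.5% of all windows. None of the 5 windows held CCAAT, found in 34% of windows, or TATAAA, found in 12.9%.

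Sgcb encodes beta sarcoglycan, a core subunit of the complex. On A_42_P646922, which is printed as 10 spots on each array, the level in HF animals was −2.19 in HF 8, −2.07 in HF 9, −2.19 in HF 10, 0.032 in HF 11, −2.16 in HF 12, −0.089 in HF 13, −2.21 in HF 14 and −2.53 in HF 35. In HFT animals it was −2.20 in HFT 22, −2.17 in HFT 23, −2.24 in HFT 24, −1.73 in HFT 25, −1.97 in HFT 26, 0.25 in HFT 27, −2.30 in HFT 28 and −2.14 in HFT 36. HF 11, HF 13 and HFT 27 were high and the other 13 arrays low, with no array between them. The high level thus occurred in 2 of 8 HF and 1 of 8 HFT animals, on 3 different slides. In bulk tissue, fewer cells of a type and less RNA per cell cannot be told apart. The 2 levels are those of 1 probe, and the other Sgcb probe, described below, did not follow them. They are not read here as amounts of Sgcb RNA.

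The step between the lowest of the high arrays (HF 13) and the highest of the low ones (HFT 25) was 1.64 log2 units, a 3.12-fold difference in signal. The 3 high arrays lay within 0.33 of each other. The 13 low arrays spanned 0.79, with no more than 0.24 between neighbours in the order of levels. As processed signal, before scaling, the high arrays read 925 to 1064 and the low ones 164 to 326. All 16 arrays lay well above background on this probe, so the low level is not the background of the array. That mark does not tell specific from unspecific signal, and whether the low signal is specific to Sgcb was not tested.

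The individual spots showed the same separation. The 30 spots of the 3 high arrays were all at −0.16 or above, and the 128 spots used on the other arrays were all at −1.64 or below. Spots of an array differed from each other by an SD of 0.045 to 0.10. Feature Extraction had marked 2 further spots as not usable, 1 on HFT 23 at −1.97 and 1 on HF 35 at −0.99.

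The other Sgcb probe, A_44_P1004781, has 1 spot and is assigned to the same RefSeq transcript. Its level was −1.84 in HF 11, −1.56 in HF 13 and −1.53 in HFT 27, the 3 animals high on the first probe. In the other HF animals it was −1.99 in HF 8, −1.60 in HF 9, −1.97 in HF 10, −1.43 in HF 12, −1.45 in HF 14 and −1.56 in HF 35. In the other HFT animals it was −1.83 in HFT 22, −1.78 in HFT 23, −1.83 in HFT 24, −1.21 in HFT 25, −1.41 in HFT 26, −1.83 in HFT 28 and −1.50 in HFT 36. The 3 animals thus lay inside the range of the other 13 arrays, −1.99 to −1.21, and HF 11 lay in its lower portion. The largest step of this probe was 0.18 log2 units. Across all 16 arrays the 2 probes correlated with a Pearson r of 0.097, and across the 13 arrays low on the first probe with r = 0.51; both are descriptions over arrays that share slides. The positions of the probes on the transcript were not analysed here.

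**Figure D1:**
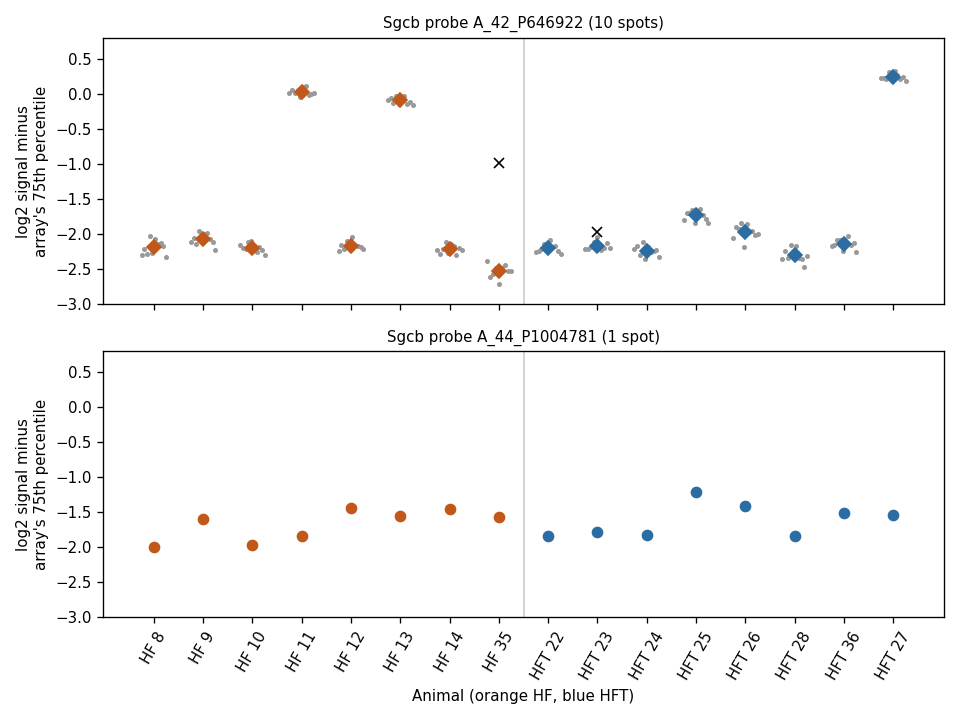
The upper panel plots the level (log2 signal minus the array's 75th percentile) of Sgcb probe A_42_P646922 in each animal, HF in orange and HFT in blue: grey dots are spots, diamonds the mean of the spots used, and crosses the 2 spots left out. The lower panel plots the second Sgcb probe, with 1 spot, on the same scale: HF 11, HF 13 and HFT 27 stand at −0.089 to 0.25 above and at −1.84 to −1.53 below.

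Alpha sarcoglycan, encoded by Sgca, is the subunit known mainly from striated muscle. Probe A_43_P16949 (2 spots) read 2.72 in HF 11, 2.11 in HF 13 and 2.49 in HFT 27. The other HF animals read 2.17 (HF 8), 1.94 (HF 9), 2.38 (HF 10), 2.17 (HF 12), 2.28 (HF 14) and 2.51 (HF 35). The other HFT animals read 2.16 (HFT 22), 2.51 (HFT 23), 1.96 (HFT 24), 2.33 (HFT 25), 2.39 (HFT 26), 1.65 (HFT 28) and 2.67 (HFT 36). HF 11 was the highest of all 16 arrays, HF 13 was among the lower ones and HFT 27 lay in the upper portion. The largest step was 0.16, and r with the 2-level Sgcb probe was 0.31.

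Epsilon sarcoglycan (Sgce), the widely expressed relative of alpha sarcoglycan, varied least of the members. Probe A_42_P686820 (1 spot) read 2.83 in HF 11, 3.09 in HF 13 and 2.86 in HFT 27. The other HF animals read 2.64 (HF 8), 2.80 (HF 9), 2.75 (HF 10), 2.97 (HF 12), 2.96 (HF 14) and 2.46 (HF 35), and the other HFT animals 2.97 (HFT 22), 2.71 (HFT 23), 2.69 (HFT 24), 2.91 (HFT 25), 2.87 (HFT 26), 2.49 (HFT 28) and 2.89 (HFT 36). The whole span was 0.64 log2 units, 1.55-fold. HF 13 was the highest array, and HF 11 and HFT 27 lay inside the range of the others, with r = 0.42 against the 2-level Sgcb probe.

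Sarcospan (Sspn), the small membrane protein at the side of the complex, read −2.07 in HF 11, −1.39 in HF 13 and −1.72 in HFT 27 on probe A_44_P871389 (1 spot). The other HF animals read −2.17 (HF 8), −1.34 (HF 9), −1.67 (HF 10), −1.47 (HF 12), −1.99 (HF 14) and −1.96 (HF 35). The other HFT animals read −1.54 (HFT 22), −1.82 (HFT 23), −2.56 (HFT 24), −1.70 (HFT 25), −1.47 (HFT 26), −1.96 (HFT 28) and −1.69 (HFT 36). The 3 arrays were spread through the range, with HF 11 near its lower end and HF 13 near its upper end. The largest step was 0.13 and r was 0.14.

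Delta sarcoglycan (Sgcd), the core partner of beta sarcoglycan, had 1 array far above the rest, and it was another animal. Probe A_64_P078899 (1 spot) read −0.63 in HF 9 and between −3.54 and −2.20 in the other 15 animals. The other HF animals read −3.17 (HF 8), −3.0 (HF 10), −2.28 (HF 11), −3.32 (HF 12), −2.67 (HF 13), −2.47 (HF 14) and −2.71 (HF 35). The HFT animals read −2.84 (HFT 22), −2.45 (HFT 23), −2.23 (HFT 24), −2.63 (HFT 25), −2.20 (HFT 26), −2.64 (HFT 27), −3.54 (HFT 28) and −2.79 (HFT 36). HF 11, HF 13 and HFT 27 lay inside the range of the others, and r against the 2-level Sgcb probe was 0.097.

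HF 9 was also the array highest for both muscle gene lists. Of the 11 smooth muscle genes listed, 10 were measured, and their median on HF 9 lay 4.14 log2 units above each gene's own median over the arrays, ahead of 1.47 on HF 35 and 1.41 on HFT 24. All 10 genes were highest on HF 9. The mean level of that list ran from −0.36 to 4.47 in HF and from −0.38 to 1.66 in HFT. Myh11 (smooth muscle myosin heavy chain) read 6.22 on HF 9 and at most 3.90 elsewhere, and Actg2 (enteric smooth muscle actin) read 7.89 against at most 5.20. Of 14 skeletal muscle genes 10 were measured, with a median 1.41 above on HF 9, close to 1.29 on HF 35 and followed by 1.04 on HFT 24. Of these 10 genes, 6 were highest on HF 9 (Acta1, Actn3, Casq1, Ckm, Pygm and Tnnc2), while Tnni2 and Mb were highest on HF 35, Myl1 on HF 11 and Tnnt3 on HF 8. The list mean ran from −3.65 to −0.29 in HF and from −3.73 to −1.62 in HFT. Acta1 (skeletal muscle actin) read 3.67 on HF 9 and at most −2.49 elsewhere, and the fast myosins Myh1, Myh2 and Myh4 were among the genes not kept by the filter. Dmd (dystrophin) read −0.13 on HF 9 and −1.85 to −1.21 elsewhere, and Synm (the intermediate filament protein synemin) 5.13 against −0.37 to 1.37. Of the other sarcoglycan probes, Sspn was also highest on HF 9, by a small margin (−1.34, next array −1.39), whereas Sgca ranked 15 and Sgce ranked 10 of 16 there. Sgcd itself read −2.71 on HF 35 and −2.23 on HFT 24, inside the range of the arrays other than HF 9. HF 9 was also the highest array for the epididymal gene Ces5a, at 3.68. The parts of muscle and epididymal RNA in the Sgcd value were not tested.

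On the arrays high for the first Sgcb probe, the muscle lists did not stand apart from the others. The smooth muscle median deviation was 0.48 on HF 11, −0.45 on HF 13 and −0.12 on HFT 27, against −0.53 to 4.14 on the other arrays. The skeletal muscle values were −0.063, −0.33 and 0.036, against −0.43 to 1.41. Adipocyte genes (9 of 10 measured) gave 0.22, 0.084 and 0.17, against −0.57 to 0.33, and preadipocyte and fibroblast genes (8 of 8) gave −0.20, 0.069 and 0.20, against −0.25 to 0.26. For endothelium (8 of 8), HF 11 at 0.36 exceeded the highest other array at 0.24, while HF 13 read 0.19 and HFT 27 −0.050. For macrophages (8 of 8), HFT 27 at 0.46 exceeded the highest other array at 0.37, while HF 11 read −0.50 and HF 13 0.24. Mesothelium genes (4 of 6) put HF 13 above and HFT 27 below the other arrays, at 1.02 and −1.81 against −1.28 to 0.92, with HF 11 at −0.71. Epididymal (5 of 14) and urothelium (6 of 10) genes read 0.17, −0.36 and 1.26, and −0.10, −0.047 and −0.42, against −0.33 to 7.27 and −0.73 to 6.33. No list placed all 3 arrays on 1 side outside the range of the other 13.

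**Figure D2:**
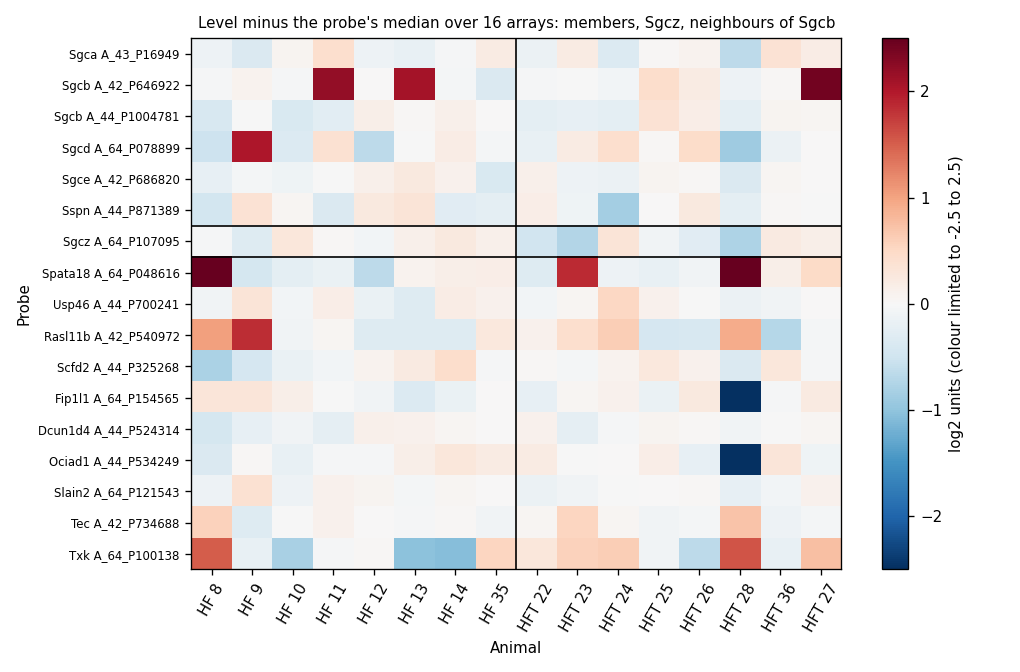
Each row is a probe and each column an animal (HF left, HFT right of the line); the colour gives the level minus the probe's median over 16 arrays in log2 units, limited to −2.5 and 2.5. The first 6 rows are the members, then Sgcz (zeta sarcoglycan) and 10 neighbours of Sgcb: the 3 dark cells of probe A_42_P646922 fall on HF 11, HF 13 and HFT 27 and in no other row together.

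A step as large as that of the Sgcb probe was uncommon on these arrays, and most of those that occurred fell on other animals. Steps were computed for all 21808 probes kept, as the largest difference between neighbouring arrays with at least 3 arrays on each side. The median was 0.14 and 326 probes (1.49%) had a step of 1.64 or more. Of these, 176 set apart the arrays high for epididymal genes and 25 those high for urothelium genes. HF 11, HF 13 and HFT 27 were defined by the step of the Sgcb probe itself. No other kept probe, at any step size, had its largest step set apart these 3 arrays. Beyond the arrays high for epididymal or urothelium genes, other sets of 3 arrays were not counted. Among the 1261 kept probes with 10 spots, 27 (2.14%) had a step as large. The other 5 member probes had steps of 0.054 to 0.18.

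**Figure D3:**
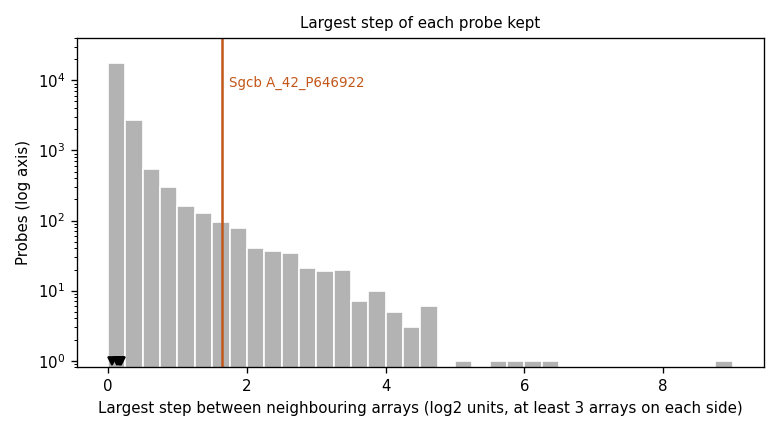
The histogram counts the 21808 kept probes (log axis) by their largest step between neighbouring arrays in log2 units. The line marks Sgcb A_42_P646922 at 1.64, with 326 probes at or beyond it including itself, and the triangles at the lower left mark the other 5 member probes, at 0.054 to 0.18.

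The genes next to Sgcb on chromosome 14 did not show its 2 levels. In the order of the RefSeq table, the 5 nearest genes with a kept probe were Spata18, Usp46, Rasl11b, Scfd2 and Fip1l1 on the side before Sgcb and Dcun1d4, Ociad1, Slain2, Tec and Txk on the side after it. For 9 of the 10, HF 11, HF 13 and HFT 27 all lay inside the range of the other 13 arrays. HFT 28 alone widened that range for Fip1l1 and Ociad1, down to −4.65 and −4.61. Dcun1d4, the nearest of those after Sgcb and a regulator of cullin neddylation, read −1.86, −1.52 and −1.59 in these animals and −2.07 to −1.51 in the others. Spata18, the nearest before it, encodes a mitochondrial quality control protein. It read −6.41, −6.17 and −5.78 in them and −6.91 to −2.70 in the others. The exception was Usp46, a deubiquitinase, with HF 13 at −1.70 below the other arrays (−1.54 to −0.86), while HF 11 read −1.21 and HFT 27 −1.37. None of the 10 genes passed the adjusted threshold between HFT and HF (limma adjusted p = 0.999994 for each).

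By Pearson correlation over the 16 arrays, the 8 named genes most like the 2-level Sgcb probe reached sizes of 0.64 to 0.68. They were picked as the largest among 21808 kept probes, and no p is given for them. Only 2 probes had a size of r over 0.7, both without a symbol, the larger at r = −0.74. They were Hbz (an embryonic alpha-type globin, r = 0.68), Inafm1 (r = −0.68), Rab4a (a small GTPase of endosomal recycling, r = 0.66), Sqstm1 (the autophagy receptor p62, r = 0.66), Npdc1 (r = 0.65), and Tsc22d2, Gnpda2 and Farp1 (r = 0.64 each). None of them had HF 11, HF 13 and HFT 27 set apart by its largest step. Rab4a read 1.88 in HF 11, 1.85 in HF 13 and 1.92 in HFT 27, against 1.47 to 1.88 in the others. Sqstm1 read 0.86, 0.88 and 1.09, against 0.56 to 0.96. Over the 13 low arrays alone, r was 0.69 for Rab4a, 0.69 for Sqstm1 and 0.64 for Npdc1, but 0.22 for Hbz and −0.19 for Farp1. Gnpda2, of amino sugar metabolism, lies on the chromosome of Sgcb with 42 genes between them, and 3.30% of the kept named probes lie on that chromosome. Of the member genes, Sgce had the largest size of r with the 2-level probe, ranking 1151 among the kept probes.

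Between HFT and HF no member differed beyond the spread between animals. Across the array, limma called 0 of 21808 probes at an adjusted p under 0.05 (0%), and 515 (2.36%) at an unadjusted p under 0.05. None of the 6 member probes was in either count, and limma's adjusted p was 0.999994 for each. The median difference of all probes was −0.016.

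The 2-level Sgcb probe averaged −1.68 ± 1.03 (SD, n = 8) in HF and −1.81 ± 0.85 (n = 8) in HFT. The difference, HFT minus HF, was −0.14 log2 units (SE 0.44), with a 95% interval of −1.07 to 0.80 that corresponds to a ratio of 0.476 to 1.74. A two-sided exact permutation test over all assignments of the animals to 8 and 8 gave p = 0.956. The sign turned when HF 11 (0.11) or HF 13 (0.091) was left out, and without HFT 27 the difference was −0.43. Leaving out the 6 arrays high for epididymal or urothelium genes gave 0.051. Within the 4 slides, with 2 animals of each group per slide, it was −0.056, −0.90, −1.01 and 1.42.

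The second Sgcb probe averaged −1.68 ± 0.22 in HF and −1.62 ± 0.24 in HFT (SD, n = 8 each), a difference of 0.060 (SE 0.11, 95% interval −0.18 to 0.30). This interval is narrower than that of the first probe and both include 0. It was 0.15 without the arrays high for urothelium genes and 0.23 without those high for either list, still short of the adjusted threshold. The within-slide differences were −0.0098, 0.39, −0.13 and −0.0086.

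Sgca averaged 2.29 ± 0.25 in HF and 2.27 ± 0.34 in HFT, a difference of −0.017 (SE 0.14, 95% interval −0.32 to 0.29). Sgce averaged 2.81 ± 0.20 and 2.80 ± 0.16, a difference of −0.015 (SE 0.093, 95% interval −0.21 to 0.18). Sspn averaged −1.76 ± 0.33 and −1.81 ± 0.34, a difference of −0.049 (SE 0.16, 95% interval −0.39 to 0.29). For these 3 genes the groups overlapped over nearly their whole ranges, and a change beyond 0.39 log2 units in either direction lay outside the intervals. Sgcd averaged −2.53 ± 0.84 and −2.66 ± 0.42, a difference of −0.13 (SE 0.31, 95% interval −0.80 to 0.53), which turned to 0.14 without HF 9. The signs of the within-slide differences were mixed for each of the 4 genes, and the sign of each difference turned under 1 or more other settings.

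**Figure D4:**
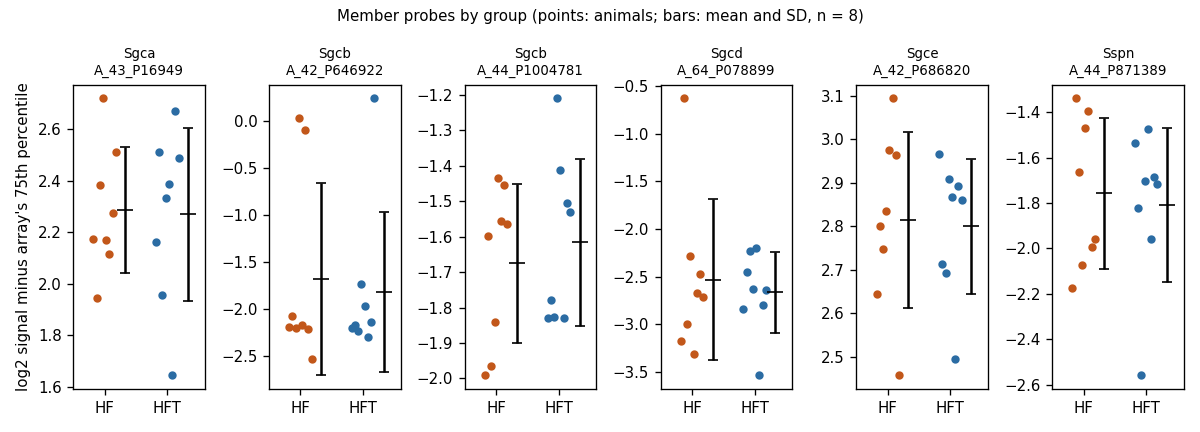
Each panel plots 1 member probe on its own vertical axis (log2 signal minus the array's 75th percentile), with a point per animal and the mean and SD of the 8 HF (orange) and 8 HFT (blue) animals. The groups overlap in all 6 panels; Sgcb A_42_P646922 has 2 HF points and 1 HFT point at −0.089 to 0.25, and Sgcd has HF 9 alone at −0.63.

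The other genes of the complex were read by role from lists of 52 genes, of which 39 were on the array under these names and 36 passed the filter. None passed the adjusted threshold in limma and 1 had an unadjusted p under 0.05, while 13 differences lay above 0 and 23 below (43.8% of all kept probes lay above 0), with a median of −0.024 beside −0.016 for all probes. On none of the 36 genes were HF 11, HF 13 and HFT 27 the 3 highest arrays. The median deviation of these genes was 0.045 on HF 11, 0.066 on HF 13 and 0.011 on HFT 27.

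Sgcz (zeta sarcoglycan) was dim, well above background on 11 of 16 arrays, and averaged −6.34 ± 0.20 in HF and −6.60 ± 0.43 in HFT, a difference of −0.25 (SE 0.16). On the dystrophin axis, Dmd differed by −0.19 (SE 0.19) and Utrn (utrophin, the relative of dystrophin found outside muscle fibres) by 0.022 (SE 0.14). Drp2 did not pass the filter and Dag1 (dystroglycan) was not matched to a probe.

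Among the syntrophins and bound proteins, 7 of 14 genes were tested, 2 above 0 and 5 below. Sntg2 (gamma 2 syntrophin) differed by −0.35 (SE 0.22), Sntb1 (beta 1 syntrophin) by 0.11 (SE 0.15), and Krt8 (keratin 8, an epithelial filament protein) by 0.63 (SE 0.77). In the list of laminin and matrix ligands of dystroglycan, 7 of 14 genes were tested, and Lama2 and Hspg2 were not among them. All 7 tested differences lay below 0, with a median of −0.081, on arrays where most probes lay below 0. Bgn (biglycan, a proteoglycan that binds sarcoglycans and dystroglycan) was the gene with an unadjusted p under 0.05: it averaged 5.55 ± 0.25 in HF and 5.28 ± 0.19 in HFT, a difference of −0.26 (SE 0.11). Its adjusted p in limma was 0.999994. Its second probe differed by −0.48 (SE 0.24), with an unadjusted p above that limit. Lamb2 (laminin beta 2) differed by −0.13 (SE 0.083) and Col6a2 (collagen VI) by −0.081 (SE 0.074). The 18 enzymes that glycosylate dystroglycan so that it binds laminin had 10 differences above 0 and 8 below, with a median of 0.00085. Among those of smallest p were Pomt2 (a protein O-mannosyltransferase) at −0.18 (SE 0.20) and Pomk (a kinase of the O-mannose glycan) at −0.089 (SE 0.058).

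**Figure D5:**
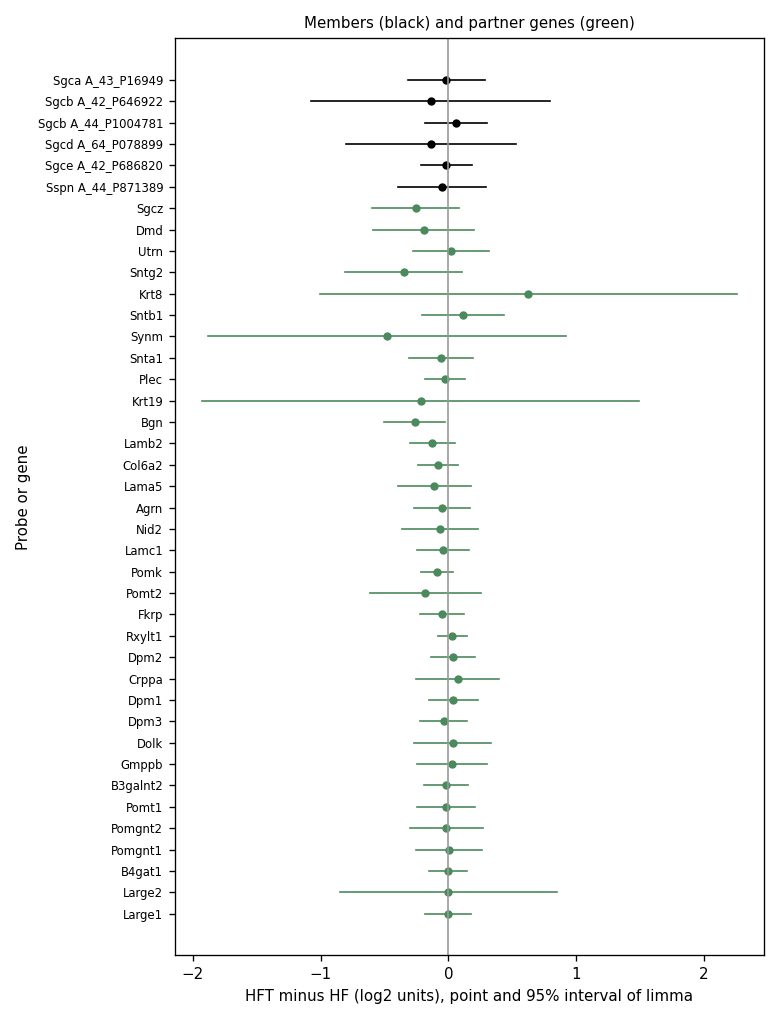
Points give the HFT minus HF difference in log2 units and lines its 95% interval from limma, for the 6 member probes (black) and 34 of the 36 partner genes tested (green), each at its probe of highest mean signal. All member intervals include 0, and Sgcb A_42_P646922 has the widest of them, −1.07 to 0.80; of the partners shown Bgn alone has an interval that does not reach 0, before adjustment.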

How the data were processed

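Epididymal fat RNA of 16 rats was labelled with Cy3 and hybridised to 1-colour Agilent arrays, per the labels' protocols. The deposited intensity of a spot is the signal of Agilent Feature Extraction 10.7.3.1 after background subtraction and detrending, per the file headers, which name no scaling across arrays. Marks for spots above background, saturated, not uniform or far from their replicates were also set there, per the file headers. The authors' deposited table of log2 values, with normalization not given in the sources used here, was an alternative only.

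Levels are log2 processed intensities minus the 75th percentile of the array (control spots left out), without marked spots, averaged per probe. A probe had to be well above background in 4 or more arrays of either group (21808 of 30367). HFT and HF were compared with limma 3.58.1 (R 4.3.3, with files read by data.table, version 1.17.8), Benjamini-Hochberg over all kept probes, threshold 0.05. Symbols, promoter windows and gene order came from RefSeq (GRCr8); the array design is labelled with an older build, so no probe coordinates are given. All 5 member genes matched a promoter window. The code was tested on simulated data.

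The members and lists were chosen with earlier results of these data known. Named were all member probes, up to 3 genes of smallest p per partner list, the 8 genes most like the 2-level probe, probes whose step sets apart the same arrays, and 5 neighbours on each side. Marker genes and the genes of HF 9 were named after their values were seen. Of the genes this rule names, 2 are not reported here.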

Additional observations from a re-analysis of the deposited data

Results flagged for a closer look

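Among 36 named probes, 72 groups of 8 arrays were examined for a single array far from the other 7, judged by Dixon's gap ratio. The 2-level Sgcb probe was left out, since it was chosen for such gaps. This picked 12 groups. Chance alone picks about 1 in 20 groups, if the arrays of a group are independent and normally spread. All 12 picks fell on arrays named above as standing apart for genes of other tissues. The share of groups picked among all kept probes was not counted. No excess in the named genes is therefore read from the 12. Of the members, Sgcd read −0.63 in HF 9 against −3.32 to −2.28 in the rest of its group. Sspn read −2.56 in HFT 24 against −1.96 to −1.47 in the rest of its group.

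Among the neighbours of Sgcb, Spata18 read −3.06 in HF 8 against −6.91 to −6.08 in the rest of its group. Usp46 read −0.86 in HFT 24 against −1.54 to −1.27 in the rest of its group. Fip1l1 read −4.65 in HFT 28 against −0.38 to 0.065 in the rest of its group. Ociad1 read −4.61 in HFT 28 against −0.53 to −0.018 in the rest of its group. Slain2 read 1.17 in HF 9 against 0.67 to 0.91 in the rest of its group. Tec read −0.37 in HF 8 against −1.27 to −0.84 in the rest of its group. HF 8 and HFT 28 are arrays high for epididymal genes, and the part of that RNA in these values was not tested.

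Of the partner genes, Dmd read −0.13 in HF 9 against −1.70 to −1.27 in the rest of its group. Sntg2 read −7.76 in HFT 22 against −6.73 to −6.07 in the rest of its group. Bgn read 5.70 in HFT 22 against 5.10 to 5.38 in the rest of its group. Lamb2 read 1.75 in HF 35 against 2.01 to 2.21 in the rest of its group. HF 9 had the highest median for smooth muscle (4.14) and skeletal muscle genes (1.41), followed for both by HF 35 (1.47 and 1.29) and HFT 24 (1.41 and 1.04), and HFT 22, HFT 24 and HF 35 are high for urothelium genes. Their part was not tested.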

How the results depend on the processing

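The 2 levels of Sgcb A_42_P646922 held with HF 11, HF 13 and HFT 27 apart under all 8 other settings that apply to them (background correction, scaling, the deposited log2 table, marked spots, and leaving out arrays high for epididymal or urothelium genes), with steps of 1.48 to 1.64. Keeping marked spots or leaving out those arrays could not change the step, since neither touches HF 13 or HFT 25, which bound it. Background correction, scaling and the deposited table, which could change it, gave 1.48 to 1.59. Leaving out 1 animal at a time gave 0.24 to 1.88: without HF 11, HF 13 or HFT 27 fewer than 3 arrays remained above and the step became 0.24 by that construction, and without HFT 25 it was 1.88. The count of member probes and of partner genes past the adjusted threshold was 0 under all 12 settings and with each animal left out. The count over all probes was 0 with each animal left out and 0 in 11 of the 12 settings, with 1 once the epididymal-high arrays were left out (Acot5, an acyl-CoA thioesterase, −4.38, SE 0.49, limma adjusted p = 0.0131, with 7 HF and 6 HFT animals).

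No member difference passed the threshold under any setting, and signs turned for several small ones; the cause was not tested. With array weights, Sgca read 0.019, Sgcd 0.022 and Sspn 0.0027. Without the arrays high for either list, Sgca read 0.20, Sspn 0.010 and Sgcb A_42_P646922 0.051, with an exact permutation p of 0.938 beside 0.905 to 0.985 over the 8 settings. Without the epididymal-high arrays Sgca read 0.031 and Sgce 0.026, and without the urothelium-high arrays Sgca read 0.086 and Sspn 0.0025. Sgcb A_44_P1004781 kept its sign in all 12 settings but moved from 0.060 to 0.15 without the urothelium-high arrays and to 0.23 without those high for either list. With each animal left out in turn, the difference ranged from −0.074 to 0.072 for Sgca, −0.43 to 0.11 for Sgcb A_42_P646922 (exact permutation p 0.429 to 0.987), 0.0021 to 0.095 for Sgcb A_44_P1004781, −0.25 to 0.14 for Sgcd, −0.066 to 0.029 for Sgce and −0.11 to 0.058 for Sspn. The alternatives for the partner lists and the permutation test were chosen after seeing the data. No paired analysis was possible because HF and HFT animals share no number in the labels. Signal over background limits Sgcz and the other dim probes, not the members. Slide as a block changed no call.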

Other observations

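The animals HF 11, HF 13 and HFT 27 were the 3 highest or the 3 lowest arrays on 13 of the 21808 kept probes (0.0596%), the 2-level Sgcb probe included. On some of the 13, the Sgcb probe among them, they were the highest arrays. On others, among them the probes of Miox (myo-inositol oxygenase) and Fam117a, they were the lowest. The Miox probe was well above background on only 8 arrays and no order is read from it. The gap to the next array was 1.64 for Sgcb and 0.10 or less for the remaining 11. None of the other named genes among the 13 (Miox, Srgap1, Fam117a and Fshr, named after their values were seen) lies on the chromosome of Sgcb.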
